A study of Mus musculus with 12 samples.

Results

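The interaction of diet and DSS in mouse colon is a difference of differences. For each gene it is the difference between colon with and without DSS under a high-fat diet, minus the same difference under the other diet. A value of 0 says that DSS went with the same log2 difference under both diets, a positive value that the difference was higher under the high-fat diet, and a negative value that it was lower. The members are all genes at 1 or more FPKM (fragments scaled to transcript length and library size) in at least 3 of the 12 libraries, which gave 14179 of the 54532 genes in the deposited table. They were chosen by level alone and not by how they moved.

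The 12 libraries fell into 4 groups of 3, all of wild-type (WT) C57BL/6J mouse colon. 1 group received the diet that the labels call CD, 1 a high-fat diet (HFD), and the other 2 received CD or HFD together with 2% DSS. The labels do not spell out CD, and they give no age, sex or duration of feeding. They do not say whether replicates are separate animals, so the p-values measure the spread between these samples. Each library held about 14700000 to 17900000 fragments on genes. Markers of colon epithelium were high in every library, with the adhesion gene Epcam at FPKM 599 to 1195, the mucin gene Muc2 at 304 to 1268 and the microvillus gene Vil1 at 146 to 291. A few libraries stood apart. HFD+DSS replicates 1 and 3 lay far from the rest on a principal component each. Squamous epithelium genes summed to FPKM 30.3 in CD replicate 3 and to 1.70 to 3.24 in the other libraries.

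DSS, dextran sulfate sodium, is a polysaccharide that injures the colonic epithelium when animals drink it, after which bacteria reach the mucosa and an inflammatory response follows. The intact epithelium is patrolled by intraepithelial lymphocytes, many of them CD8-positive T cells loaded with granzymes. A high-fat diet changes bile acids, the bacteria and the fuel that reach the colon, and the title of the series names autophagy and colitis as its subject. The design question for these 4 groups is whether the colon met DSS differently on the 2 diets.

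No gene passed the test for the interaction. Among the 14179 genes, 0 (a share of 0%) had an adjusted p under 0.05 with limma, and the smallest limma adjusted p was 0.174. At an unadjusted p under 0.05 there were 769 genes (5.42%) where chance alone gives 709. Of these, 382 were positive (2.69%) and 387 negative (2.73%). Limma's voom on the recovered fragment counts called 0 genes as well, with 753 at an unadjusted p under 0.05. The values below are therefore estimates with their errors, and none is a called change. Leaving out 1 library at a time gave 0 called genes in 10 of the 12 fits. Without CD replicate 3 limma called 3 genes, which were Nkg7 (adjusted p = 0.0065), 9030619P08Rik and Apol10c-ps, and without CD+DSS replicate 1 it called Mptx1 (adjusted p = 0.00081).

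The interaction was measured less precisely than a plain difference between groups. Its median standard error (SE) was 0.30 on the log2 scale, against 0.21 for DSS under 1 diet. For 8613 genes (60.7%) the 95% confidence interval lay wholly between -1 and 1 in log2(FPKM + 1). For genes at high FPKM this bound is close to a 2-fold difference between diets, and for genes at a few FPKM it allows a larger ratio. For the remaining genes the interval reached beyond that bound or lay wholly outside it.

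In 627 of the 769 genes (81.5%) the DSS difference had opposite signs under the 2 diets, against 4450 of all 14179 (31.4%). Choosing genes for a large difference between the 2 values favours opposite signs, so the first share is a description. Genes whose libraries separated fully in both diets, in opposite directions, were few. All CD+DSS libraries were above all CD libraries, and all HFD+DSS libraries below all HFD libraries, in 20 genes (0.141%). The reverse order held in 27 genes (0.19%).

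**Figure D1:**
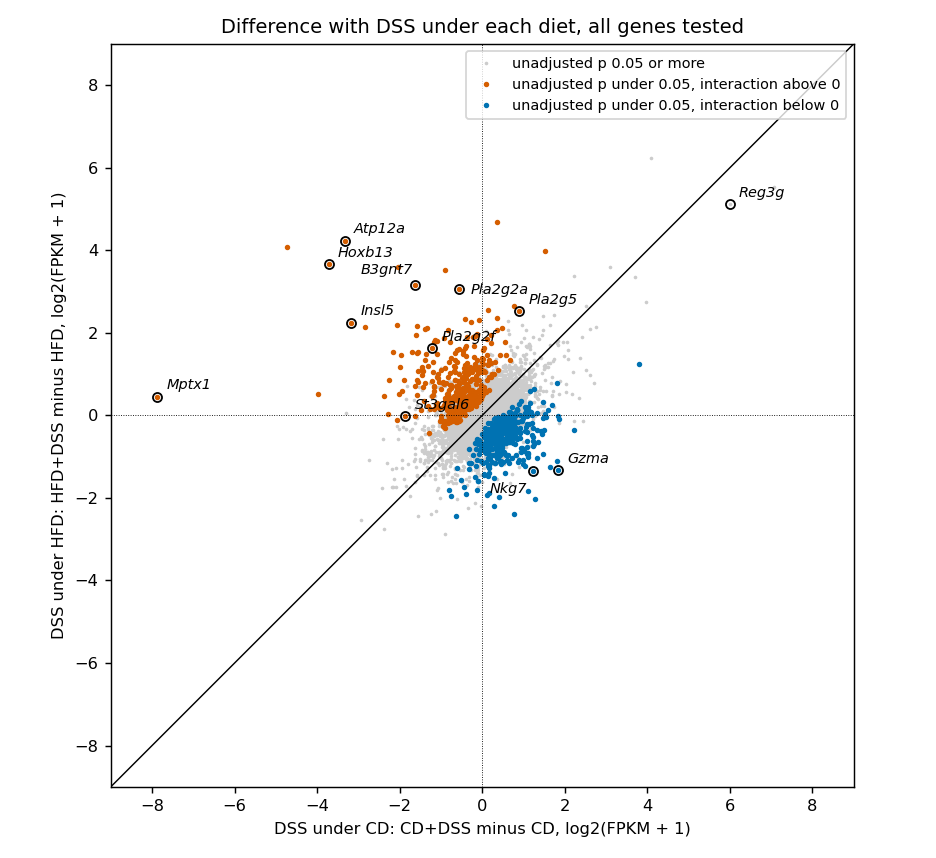
Each point is 1 of the 14179 genes, with its mean difference with DSS under CD on the x axis and under HFD on the y axis, both in log2(FPKM + 1). The line marks equal differences. Genes above it have a positive interaction and genes below it a negative one. Reg3g lies close to the line at 6.00 and 5.12, while Nkg7 (1.24 and -1.35) and Hoxb13 (-3.72 and 3.66) lie in the quadrants where the signs differ.

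Among the genes with a negative interaction, those of cytotoxic lymphocytes had the smallest p. Nkg7 (ENSMUSG00000004612, mm10 chromosome 7, 43437073 to 43438249), a membrane protein of cytotoxic granules, had the smallest p on the negative side. Its FPKM was 2.43, 2.51 and 6.04 in CD and 11.6, 8.51 and 8.29 in CD+DSS. It was 11.3, 12.0 and 8.28 in HFD and 2.65, 4.43 and 3.55 in HFD+DSS. Under CD the DSS libraries were all higher than those without DSS, and under HFD they were all lower. The interaction was -2.59 ± 0.39 (SE, n = 3 per group; limma adjusted p = 0.174), with a 95% interval of -3.44 to -1.73. Leaving out each library in turn gave -2.93 to -2.41.

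The granzymes, serine proteases that cytotoxic cells release into their targets, had the same order of groups. Gzma was at FPKM 6.50, 7.46 and 23.0 in CD, 68.3, 37.6 and 25.5 in CD+DSS, 40.0, 41.2 and 32.9 in HFD, and 18.6, 19.1 and 8.54 in HFD+DSS. Its interaction was -3.17 ± 0.66 (limma adjusted p = 0.56). Gzmb was at 2.84, 4.39 and 13.1 in CD, 37.7, 14.9 and 13.3 in CD+DSS, 16.0, 18.1 and 11.8 in HFD, and 6.57, 6.98 and 4.09 in HFD+DSS, with an interaction of -2.89 ± 0.67. For both genes the groups with and without DSS did not overlap under either diet. CD replicate 3 was the highest CD library for each, and without it the interaction was -3.70 for Gzma and -3.43 for Gzmb.

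The T cell co-receptor chain Cd8a was at FPKM 1.70, 2.08 and 3.36 in CD and 10.5, 6.21 and 4.61 in CD+DSS. Under HFD the values were 5.89, 5.83 and 3.59 without DSS against 2.60, 3.68 and 1.73 with it, so the groups overlapped there. Its interaction was -1.97 ± 0.42, and that of the partner chain Cd8b1 was -1.82 ± 0.47. The chemokine gene Ccl5, which activated T cells express, was at -2.35 ± 0.62, the T cell surface gene Cd7 at -1.86 ± 0.39 and the T cell kinase gene Lck at -1.12 ± 0.29. Among chains of the CD3 complex, which carries the T cell receptor's signal, the values were -1.43 ± 0.41 for Cd3d, -1.23 ± 0.40 for Cd3g and -1.01 ± 0.38 for Cd3e. The integrin chain Itgae, which holds T cells to epithelial cadherin, was at -1.39 ± 0.51. For none of these was the limma adjusted p under 0.56.

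**Figure D2:**
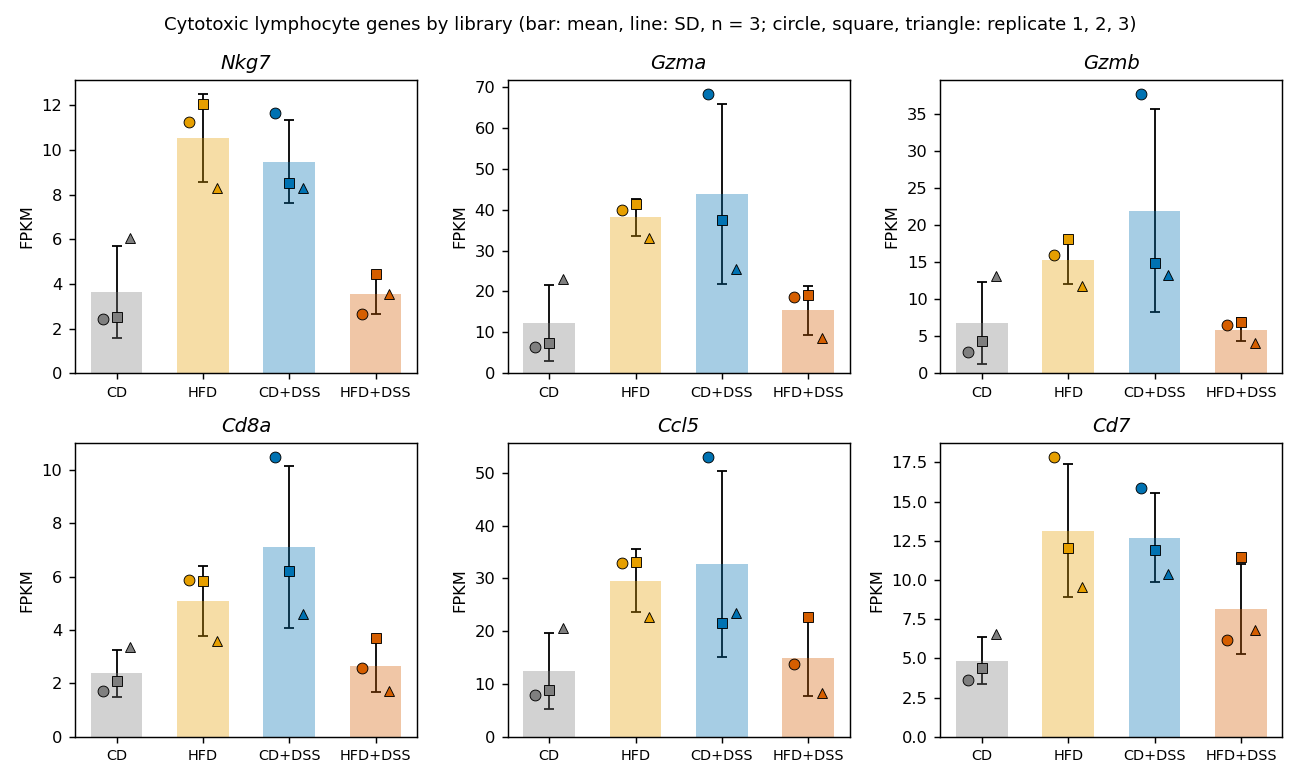
FPKM of 6 cytotoxic lymphocyte genes in each of the 12 libraries, with the mean as a bar and the SD as a line (n = 3). In each panel the means of HFD and CD+DSS lie above those of CD and HFD+DSS. For Nkg7, CD spans 2.43 to 6.04 and HFD+DSS 2.65 to 4.43, below the 8.28 to 12.0 of the other groups.

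The list of T and NK cell markers held 20 genes, of which 18 were tested; the cytotoxic genes Prf1 and Ncr1 were too low. The interaction was negative in 17 of the 18, and 14 had an unadjusted p under 0.05 on the negative side, against 2.73% of all genes. The median was -1.31, made up of 0.78 with DSS under CD and -0.64 with DSS under HFD, against -0.007 for all genes tested. Leaving out each library in turn moved the list's median between -1.48 and -0.98. The values varied within the list, since the helper T cell co-receptor Cd4 was at -0.42 ± 0.58 and the T and NK cell adhesion gene Cd2 at 0.01 ± 0.45. The summed FPKM of all 20 members was 46.3 to 110 in CD, 123 to 267 in CD+DSS, 127 to 179 in HFD and 52.7 to 108 in HFD+DSS. In bulk tissue fewer cells of a type and less RNA per cell cannot be told apart.

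Of the 21 chemokine genes tested, 7 had positive and 14 negative values (median -0.34). Beside Ccl5, the macrophage and T cell chemokine Ccl4 was at -1.80 ± 0.41, the interferon-induced Cxcl9 at -1.98 and Ccl9 at -1.25, while the epithelial chemokine Ccl28 was at 1.20. Marker lists of other immune cells had medians smaller in size than that of T and NK cells, though single genes such as Ly6g (below) did not. The median was 0.32 over 5 tested neutrophil markers and -0.34 over 4 tested mast cell markers. Of 15 macrophage and monocyte markers 9 were negative (median -0.12), and Cd14, a co-receptor for bacterial lipopolysaccharide, was at 0.99 ± 0.25. Of 13 B and plasma cell markers 11 were positive (median 0.41), and 0 had an unadjusted p under 0.05, against 5.42% of all genes. All 9 MHC class II genes were tested, with 7 negative and a median of -0.47. Of the 9, 0 had an unadjusted p under 0.05, against the same 5.42%.

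On the positive side the smallest p among well-expressed genes belonged to secreted phospholipases, enzymes that cleave phospholipids and that in the gut act on bacterial membranes. Pla2g2f (ENSMUSG00000028749, mm10 chromosome 4, 138750533 to 138757626) was at FPKM 14.7, 12.3 and 14.0 in CD and 8.15, 3.22 and 5.52 in CD+DSS. It was at 1.53, 1.86 and 3.78 in HFD and 7.90, 7.40 and 12.7 in HFD+DSS. The groups did not overlap under either diet, and the order was opposite. The interaction was 2.84 ± 0.43 (limma adjusted p = 0.174), with a 95% interval of 1.89 to 3.79. Leaving out each library in turn gave 2.55 to 3.12.

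Pla2g2a, which lies in the same cluster (chromosome 4, 138831857 to 138835186), is annotated as a polymorphic pseudogene, since the C57BL/6 allele carries an inactivating frameshift. Its transcript was at FPKM 7.37, 8.30 and 9.63 in CD, 10.1, 2.79 and 5.20 in CD+DSS, 1.15, 1.65 and 2.60 in HFD, and 45.9, 11.9 and 19.1 in HFD+DSS. The groups overlapped under CD and were apart under HFD, with an interaction of 3.63 ± 0.64 (limma adjusted p = 0.277). Pla2g5 (chromosome 4, 138799244 to 138863482) was at 5.05, 6.73 and 4.45 in CD, 13.0, 9.25 and 10.4 in CD+DSS, 1.98, 1.06 and 2.19 in HFD, and 13.5, 11.2 and 20.1 in HFD+DSS. Here the DSS libraries were higher under both diets, by 0.89 and 2.53, with an interaction of 1.63 ± 0.34. Pla2g5 spans Pla2g2a on the opposite strand, and the counting is not stated to use strand, so reads of these genes may have been shared.

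Across all phospholipase A2 genes of the table (23 with a Pla2g symbol, chosen after values were seen), 16 were tested, 11 with positive and 5 with negative values. An unadjusted p under 0.05 was found for 5, all positive, against 2.69% of all genes. Besides the genes of the chromosome 4 cluster these were Pla2g4f, a cytosolic family member (2.52 ± 0.77), and the antisense transcript Pla2g10os (0.80 ± 0.30). With the posterior Hox covariate described below Pla2g4f was at -0.23 ± 0.52, so its sign turned. The cluster member Pla2g2d was at 0.13 ± 0.62, and the cytosolic Pla2g4a at -0.28 ± 0.34. Thus the values differed within the family, and no test of that difference was made.

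**Figure D3:**
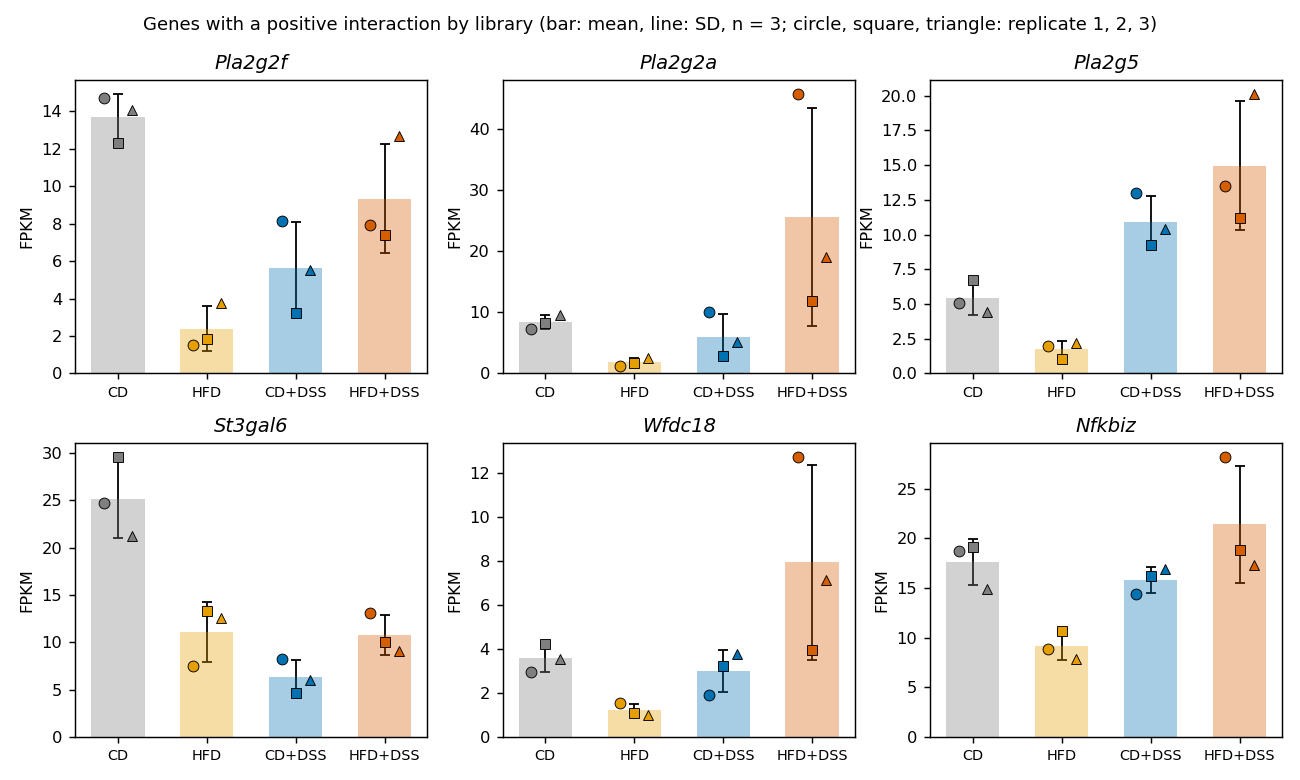
FPKM in each of the 12 libraries for 6 genes with a positive interaction, with the mean as a bar and the SD as a line (n = 3). In every panel but that of St3gal6 the HFD group has the lowest mean, and Pla2g2f runs from 1.53 to 3.78 in HFD and from 7.40 to 12.7 in HFD+DSS.

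Other well-expressed genes on this side came from several functions. The sialyltransferase gene St3gal6 was at FPKM 24.8, 29.6 and 21.3 in CD, 8.26, 4.60 and 6.06 in CD+DSS, 7.45, 13.3 and 12.5 in HFD, and 13.1, 10.1 and 9.11 in HFD+DSS. It was lower in all CD+DSS libraries than in all CD libraries and overlapped between the HFD groups, with an interaction of 1.84 ± 0.35 (limma adjusted p = 0.407). Wfdc18, of the whey acidic protein family of protease inhibitors, had an interaction of 2.12 ± 0.44. Nfkbiz, an inducible regulator of NF-kappaB target genes, was at 18.7, 19.1 and 14.9 in CD, 14.4, 16.2 and 16.9 in CD+DSS, 8.87, 10.7 and 7.86 in HFD, and 28.2, 18.9 and 17.3 in HFD+DSS. Its interaction was 1.26 ± 0.27, with overlap under CD and none under HFD. The lipid-binding trafficking gene Unc119 was at 1.38 ± 0.30, the myosin gene Myo5c at 1.29 ± 0.29, the creatine transporter Slc6a8 at 1.47 ± 0.33 and the calpain protease Capn13 at 3.73 ± 0.87. Cyp2d10 was at 2.56 ± 0.61, and reads of this cytochrome P450 gene may be shared with its close neighbour Cyp2d9 (2.82 ± 0.75).

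On the negative side, outside lymphocyte genes, the well-expressed genes with the smallest p were few. Ndrg1, a stress- and hypoxia-responsive gene, was at FPKM 24.1, 15.6 and 16.3 in CD, 31.1, 77.1 and 46.0 in CD+DSS, 29.3, 30.2 and 46.3 in HFD, and 17.7, 30.9 and 18.4 in HFD+DSS. Its interaction was -1.99 ± 0.47. Ndufa12, a subunit of respiratory complex I, was at -2.03 ± 0.55, the lipid hydroxylase Cyp4f14 at -1.23 ± 0.33 and the proprotein convertase Pcsk5 at -1.48 ± 0.41. Of the 32 nuclear-encoded respiratory chain genes 28 were negative, but the median was -0.18. In that list 0 had an unadjusted p under 0.05, against 5.42% of all genes. The list mixes subunits of several respiratory complexes and does not contain Ndufa12, and complex I was not summarised on its own. Mir3058 (-2.95 ± 0.77) lies within Nudt4 on the same strand, so its reads may come from that gene.

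Genes that mark position along the gut had some of the largest positive values. Posterior Hox genes mark the hind end of the embryo and stay active in the distal colon of the adult. The mean log2(FPKM + 1) of Hoxa13, Hoxb13 and Hoxd13 was 3.63, 5.11 and 3.13 in CD, 3.26, 0.47 and 1.21 in CD+DSS, 1.23, 1.37 and 3.53 in HFD, and 3.80, 3.74 and 4.57 in HFD+DSS. The group means were 3.96, 1.65, 2.04 and 4.04, which is an interaction of 4.30. HFD replicate 3 and CD+DSS replicate 1 were high within their low groups, and the rest of those groups lay below every CD and HFD+DSS library.

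Hoxb13 itself was at FPKM 32.9, 61.3 and 28.8 in CD, 22.6, 0.034 and 0.12 in CD+DSS, 0.71, 0 and 19.3 in HFD, and 27.4, 37.8 and 62.8 in HFD+DSS, an interaction of 7.39 ± 1.73. The groups did not overlap under either diet. Hoxb7 and Hoxb8, which are expressed further forward along the axis, were at -1.90 and -1.84. Of the 8 tested Hox genes of that anterior list 6 were negative (median -1.04). Whether the 4 groups were sampled at the same distance along the colon is not given in the labels.

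Some of the genes with high interaction values were low in the same libraries as this Hox level. Insl5, the hormone of enteroendocrine cells of the distal colon, was at FPKM 93.7, 93.5 and 42.4 in CD, 51.0, 2.25 and 2.13 in CD+DSS, 4.08, 6.81 and 33.4 in HFD, and 113, 36.3 and 33.4 in HFD+DSS. The low libraries were the 4 with a low Hox level. Atp12a, the proton-potassium pump of the distal colon, had FPKM under 1 in those 4 libraries and 25.1 to 267 in the other 8. Within those 8 libraries neither gene kept the order of the Hox level. Both were higher in HFD+DSS replicate 1 (Hox level 3.80) than in HFD+DSS replicate 3 (4.57). The interaction was 5.42 ± 1.46 for Insl5 and 7.56 ± 2.11 for Atp12a. The glycosyltransferase B3gnt7, which extends sugar chains of mucus glycoproteins, was at 56.1, 87.8 and 28.0 in CD, 33.1, 9.38 and 12.8 in CD+DSS, 3.29, 1.88 and 23.9 in HFD, and 54.0, 51.6 and 74.7 in HFD+DSS, with an interaction of 4.79 ± 1.02. For B3gnt7 and for the protease inhibitor Wfdc2 (2.74 ± 0.71) the same 4 libraries were again the lowest. Other distal genes had positive values without that order, which were 2.18 ± 0.75 for the claudin Cldn8, 2.46 ± 0.78 for the bestrophin channel Best2 and 1.76 ± 0.67 for the water channel Aqp4.

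**Figure D4:**
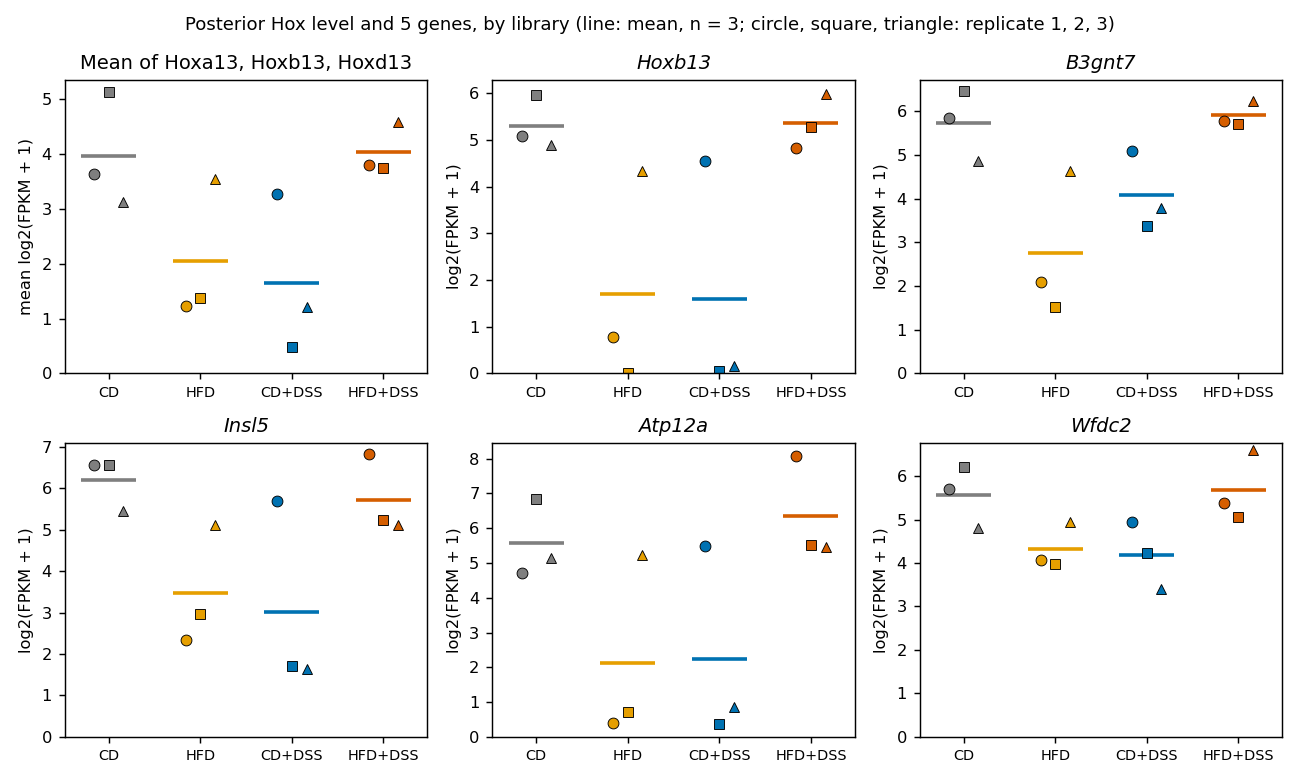
The mean log2(FPKM + 1) of 3 posterior Hox genes and the log2(FPKM + 1) of 5 single genes in each library, with group means as lines (n = 3). In the HFD and CD+DSS groups, HFD replicate 3 and CD+DSS replicate 1 have the highest values of the Hox mean, of Hoxb13, of B3gnt7, of Insl5 and of Atp12a.

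With the posterior Hox level as a covariate in the same fit, 175 genes (1.23%) had an unadjusted p under 0.05 and 0 an adjusted p under 0.05. The covariate itself carries an interaction of 4.30 and so takes up part of the contrast, and the median SE of the interaction was 0.46 with it. Of the 769 genes, 709 kept their sign and 76 had an unadjusted p under 0.05. The interaction was 0.87 ± 1.43 for Insl5, 0.51 ± 1.81 for Atp12a, 1.13 ± 0.68 for B3gnt7 and 0.64 ± 0.75 for Wfdc2. It was -0.14 ± 0.76 for Cldn8, where the sign turned. Hoxb13 is part of the covariate, so its value of 1.10 there is not independent.

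For the cytotoxic genes the covariate moved the values less. Nkg7 was at -2.24 ± 0.61, Gzma at -2.92 ± 1.06, Gzmb at -2.93 ± 1.07 and Cd8a at -1.84 ± 0.68 with the covariate. The T and NK cell list had a median of -1.42, and 9 of its 18 tested genes had an unadjusted p under 0.05, all negative, against 0.543% of all genes. Pla2g2f was at 1.60 ± 0.48, Pla2g2a at 2.39 ± 0.90, Wfdc18 at 2.51 ± 0.70, Nfkbiz at 1.52 ± 0.43 and St3gal6 at 1.06 ± 0.46 in that fit. Other genes of the positive side lay nearer to 0 with the covariate and had an unadjusted p of 0.05 or more. These were Pla2g5 at 0.75 ± 0.41, Unc119 at 0.71 ± 0.41, Slc6a8 at 0.75 ± 0.46, Myo5c at 0.40 ± 0.31, Cyp2d10 at 1.00 ± 0.76 and Capn13 at 2.19 ± 1.25. For Ndufa12 the value was further from 0, at -3.72 ± 0.55 against -2.03 ± 0.55.

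Genes of epithelial injury and inflammation varied, and for several of them the interaction was small beside the DSS differences. The antibacterial lectin Reg3g was at FPKM 0.79, 2.32 and 12.6 in CD, 68.7, 589 and 520 in CD+DSS, 16.5, 7.86 and 19.3 in HFD, and 797, 559 and 294 in HFD+DSS. It differed with DSS by 6.00 under CD and 5.12 under HFD, and its interaction was -0.89 ± 1.22 (95% interval -3.56 to 1.79). The matrix metalloprotease Mmp3 differed with DSS by 3.70 and 3.34 (interaction -0.36 ± 0.56), and the STAT3 feedback gene Socs3 by 2.52 and 2.66 (0.14 ± 0.42). For Nos2, the inducible nitric oxide synthase, the interaction was 0.49 ± 0.74, for the cytokine Tnf 0.32 ± 0.39 and for the neutrophil-associated siderophore binder Lcn2 -0.28 ± 0.56. The 95% interval of each of these genes reached beyond 1 or -1. Others had larger interaction values. The metalloprotease Mmp10 differed with DSS by 3.80 under CD and 1.25 under HFD (-2.55 ± 0.87), and the collagenase Mmp13 was at -1.15 ± 0.63. The secretory leukocyte protease inhibitor Slpi differed by 0.78 and 2.64 (1.86 ± 0.63), and the neutrophil surface gene Ly6g by 0.35 and 4.70 (4.34 ± 1.73). With the Hox covariate these were at -1.27, -0.09, 0.70 and -0.61 in the same order. Of 14 neutrophil markers 5 were tested, 3 with positive and 2 with negative values (median 0.32). Ly6g was the only one at an unadjusted p under 0.05, against 2.69% of all genes on the positive side. It was at FPKM 22.7 to 165 in CD without DSS, while the neutrophil genes Mpo and Elane reached 0.046 and 0.12 at most in any library. Which cells expressed Ly6g was not tested. Of 17 tested epithelial defence genes 13 were positive (median 0.45, and 1.44 with the Hox covariate). An unadjusted p under 0.05 was found for 3, all positive, against 2.69% of all genes.

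Among cytokines and mediators, 8 of 15 were tested, 4 with positive and 4 with negative values (median 0.06). Il6 was not tested, being above FPKM 1 in 1 library only (1.52 in CD+DSS replicate 3). Il1b was at -1.23 ± 0.78, the repair cytokine Il11 at -1.42 ± 0.77 and the prostaglandin synthase Ptgs2 at -1.18 ± 0.69, and for each the highest library was CD+DSS replicate 3. Without that library the values were -0.65 for Il11 and -0.57 for Ptgs2. For Il1b the leave-one-out value smallest in size, -0.66, came without HFD+DSS replicate 3. Il18, a cytokine that epithelial cells store as a precursor, had the highest value of the list. It was at FPKM 31.2, 57.6 and 9.42 in CD, 39.7, 30.8 and 19.4 in CD+DSS, 5.42, 8.58 and 19.99 in HFD, and 91.6, 52.8 and 51.8 in HFD+DSS. Its interaction of 2.41 ± 0.83 was 0.21 ± 0.99 with the Hox covariate. The acute-phase gene Saa1 was at 115, 194 and 62.1 in CD, 68.9, 116 and 147 in CD+DSS, 95.9, 45.0 and 70.4 in HFD, and 522, 314 and 241 in HFD+DSS. Its groups overlapped under CD and not under HFD, and the interaction was 2.40 ± 0.64 without and 2.43 ± 1.03 with the covariate.

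Autophagy, which delivers cytoplasmic cargo to the lysosome, was represented by 48 genes, of which 47 were tested. The interaction was negative in 34 and positive in 13, with a median of -0.16, and the range was -0.57 to 0.28. For 34 of the 47 (72.3%) the 95% interval lay within -1 and 1, against 60.7% of all genes. The gene with the smallest p, the autophagosome fusion gene Stx17, was at FPKM 10.2, 8.35 and 11.4 in CD, 9.45, 11.3 and 10.7 in CD+DSS, 11.5, 12.2 and 10.5 in HFD, and 7.93, 9.91 and 5.98 in HFD+DSS. Its interaction of -0.57 ± 0.25 (limma adjusted p = 0.885) was -0.02 with the Hox covariate. Without the covariate it was the only value of the list at an unadjusted p under 0.05, against 5.42% of all genes.

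The genes named here for single steps of the pathway had values from -0.46 to 0.17. The cargo receptor Sqstm1, whose protein is itself degraded by autophagy, was at FPKM 65.0 to 73.2 in CD, 76.7 to 114 in CD+DSS, 65.1 to 74.8 in HFD and 57.9 to 75.4 in HFD+DSS (interaction -0.46 ± 0.25). The membrane marker gene Map1lc3b was at 18.4 to 21.1, 18.8 to 25.5, 17.1 to 18.9 and 19.2 to 20.2 in the same order, with an interaction of 0.04 ± 0.20 (95% interval -0.39 to 0.48). The initiation kinase Ulk1 was at -0.03 ± 0.23 and the nucleation gene Becn1 at -0.29 ± 0.17. Of the conjugation machinery, Atg5 was at -0.32 ± 0.30, Atg7 at 0.17 ± 0.17 and Atg16l1 at 0.09 ± 0.21. The transcription factor Tfeb, which drives lysosomal genes, was at -0.10 ± 0.24, and of 27 lysosomal genes 10 were positive and 17 negative (median -0.11). These are transcript levels, and they do not measure the flow of cargo through the pathway.

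Genes of fatty acid oxidation, bile acid handling and detoxification mostly had negative interaction values. For the first of these lists the median diet difference (HFD minus CD) was 0.47 without DSS and -0.01 with DSS, for bile acid genes 0.34 and 0.031, and for detoxification genes 0.44 and -0.29. Of 28 fatty acid oxidation and PPAR target genes 23 were negative (median -0.49). An unadjusted p under 0.05 was found for 6, all negative, against 2.73% of all genes. Ppara, the receptor that drives this program, was at FPKM 3.39, 2.06 and 4.71 in CD, 3.95, 5.81 and 4.44 in CD+DSS, 7.92, 7.89 and 8.33 in HFD, and 2.82, 6.02 and 1.69 in HFD+DSS. It overlapped under CD and was lower in every HFD+DSS library than in every HFD library, with an interaction of -1.54 ± 0.44 (limma adjusted p = 0.693). The pyruvate dehydrogenase kinase Pdk4 was at -1.67 ± 0.63. With the Hox covariate the list's median was -0.48, and 0 of its genes had an unadjusted p under 0.05, against 1.23% of all genes. With the smooth muscle level as a covariate the median was -0.23 for this list, -0.37 for bile acid genes and -0.34 for detoxification genes.

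Of 23 detoxification enzymes 21 were negative (median -0.76). An unadjusted p under 0.05 was found for 6 of these, against 2.73% of all genes. With the Hox covariate it was found for 0, against 1.23% of all genes, and the median was -0.60. The bilirubin-conjugating gene Ugt1a1 was at -2.26 ± 0.67, although it shares exons with Ugt1a7c and Ugt1a6a and its reads may be split among them. Cyp2c65 was at -2.03 ± 0.70. Of 11 tested bile acid genes 9 were negative (median -0.73). Nr1h4, which encodes the bile acid receptor FXR, was at FPKM 26.4 to 49.3 in CD, 47.5 to 110 in CD+DSS, 45.3 to 66.9 in HFD and 55.6 to 69.9 in HFD+DSS, with an interaction of -0.73 ± 0.45 (95% interval -1.71 to 0.25). The basolateral bile acid exporter chains Slc51a and Slc51b, which FXR controls, were at -2.37 ± 1.10 and -1.26 ± 0.57. The FXR targets Nr0b2 and Fgf15 were at FPKM 0.065 and 0.069 at most in any library.

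Adipocyte genes had a median of -1.08 over 14 tested genes, 13 of them negative, and their spread was wide. Adipoq, the fat cell hormone adiponectin, ran from FPKM 0.28 to 11.6 in CD and from 7.22 to 33.6 in HFD, and its interaction was -2.06 ± 1.36. Leaving out 1 library moved the list's median between -1.43 (without CD replicate 3) and -0.69 (without CD replicate 2). Of 16 fatty acid synthesis genes 8 were positive and 8 negative (median -0.01). Genes of cholesterol synthesis and uptake were positive in 19 of 21 (median 0.36). The synthesis enzyme Sqle, at 0.67, was the only one at an unadjusted p under 0.05, against 5.42% of all genes.

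**Figure D5:**
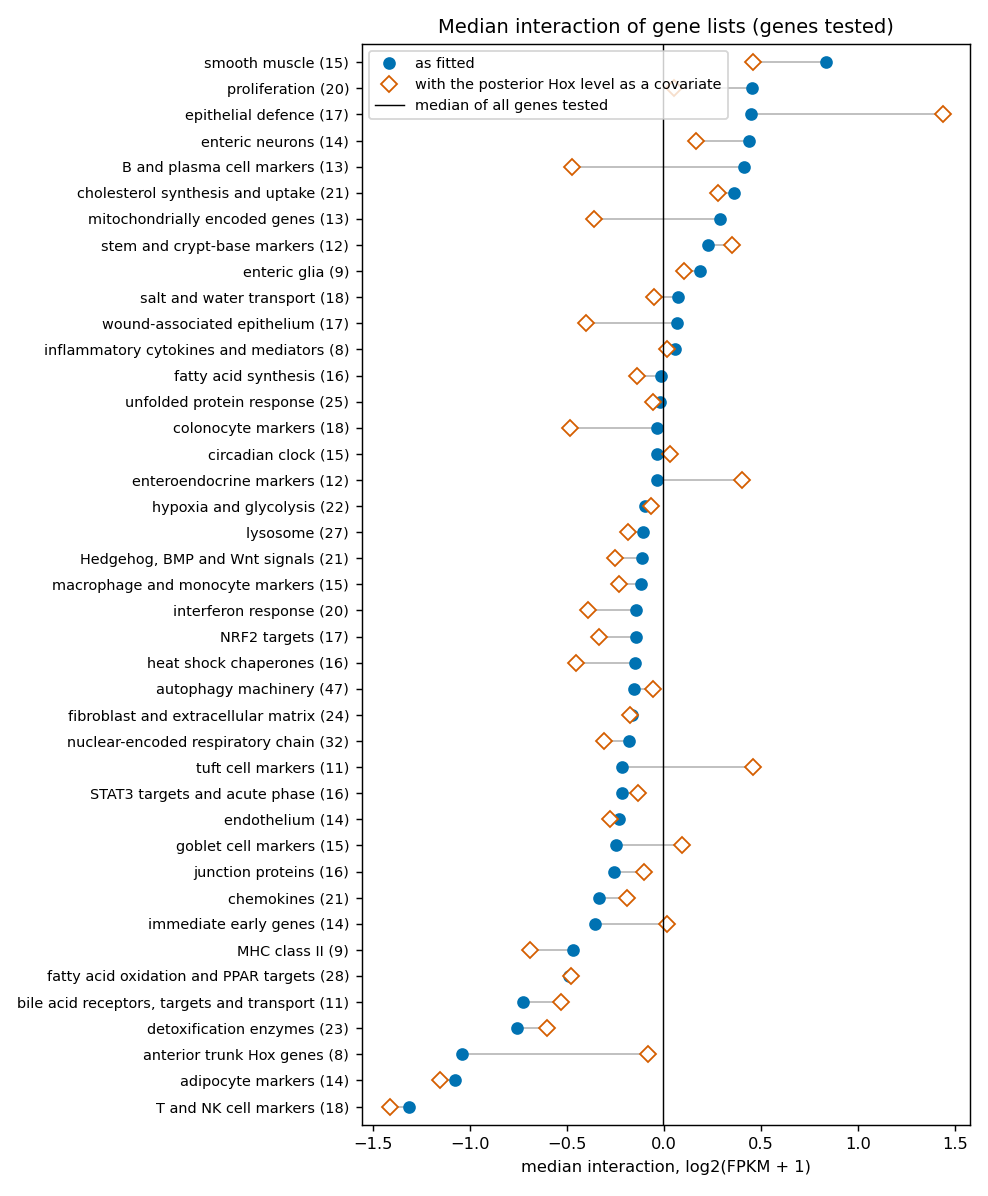
Median interaction in log2(FPKM + 1) of the 41 gene lists with at least 8 tested genes, as fitted (circles) and with the posterior Hox level as a covariate (diamonds), with the number of genes tested in brackets. T and NK cell markers lie lowest at -1.31 and -1.42. Smooth muscle lies highest at 0.83, and at 0.46 with the covariate.

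Among structural genes, all 15 smooth muscle genes were positive (median 0.83), and so were all 14 tested enteric neuron genes (median 0.44). The neuron list was led by the neuropeptide genes Tac1 (1.72 ± 0.68) and Vip (1.12). Tac1 was highest in HFD+DSS replicate 1 (FPKM 56.0), and without that library its value was 1.02. HFD+DSS replicate 3 had a summed smooth muscle FPKM of 4571 against 1030 to 2527 in the other 11 libraries. Without it the medians were 0.32 and -0.11, so the sign of the neuron list rested on that library. Of 20 proliferation genes 19 were positive (median 0.46), with 0 at an unadjusted p under 0.05, against 5.42% of all genes. Muc2, the main secreted mucin, was at -1.21 ± 0.44 and the secretory lineage factor Atoh1 at -0.86, while the goblet genes Clca1 and Fcgbp were at 1.68 and 1.17. Stem cell, junction, unfolded protein response and clock gene lists had medians between -0.26 and 0.23.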

How the data were processed

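Colon mRNA was measured in 12 libraries in 4 groups of 3 (CD and HFD, each with or without DSS). The authors deposited 1 table of FPKM values with 54532 genes by Ensembl identifier, and no step that made it beyond the mm10 build of the submitters' processing notes is given in the sources used here. Low FPKM values stepped in whole fragments, and with the summed exon lengths of GENCODE M21 97.5% to 97.8% of the values above 0 in a library (the highest genes left out) were within 0.1 of a whole fragment. The median ratio to the mean library was 1.009 in every library, so the deposited FPKM had been scaled so that the median gene is level across libraries. Symbols and coordinates came from the same annotation.

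Values were analysed as log2(FPKM + 1), which understates the change of low genes, in R 4.3.3 with limma 3.58.1 (lmFit on 4 group means, contrasts.fit, eBayes with trend) in 1 fit of all 12 libraries. The interaction was (HFD+DSS minus HFD) minus (CD+DSS minus CD). Testing took genes that reached FPKM 1 in 3 or more libraries, Benjamini-Hochberg adjustment ran over all 14179, and a gene was called at adjusted p under 0.05. The code was tested on simulated data.

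The 47 gene lists, with 849 entries of which 741 were tested, are described by counts and medians beside those of all genes, with no set test. Named genes were the 12 smallest p in each direction, the same among genes with a mean FPKM of 5 or more in 1 group (without predicted genes, pseudogenes and receptor segments), up to 3 members of each list by smallest p, and 18 genes of autophagy, inflammation and bile acid signalling. Other list members are named as examples, and a few members are not reported here. The contrast, lists and rule were chosen with earlier results of these data known. The labels give no batch. Alternatives changed the pseudocount, filter, scaling, trend, library weights, test, covariates, replicate block and the libraries included.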

Additional observations from a re-analysis of the deposited data

How the results depend on the processing

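With every library kept, limma called 0 interaction genes in 10 of 12 alternatives. It called 1 without the filter on low values (5033424D13Rik) and 23 with array weights, which let libraries count unequally, from 0.26 for HFD+DSS replicate 3 to 4.49 for HFD+DSS replicate 2. Of the 23, 14 were positive and 9 negative, and Nkg7 (adjusted p = 0.012), Pla2g2f, Gzma, Gzmb, B3gnt7, St3gal6 and Nfkbiz were among them. Leaving out each library in turn gave 0 to 3 called genes. The count at an unadjusted p under 0.05 was 769 as fitted. It moved to 1381 without the filter (30860 genes tested), 441 at FPKM 5 or more (8508 tested), 1637 with array weights and 175 with the posterior Hox covariate, and ran from 482 to 1035 with 1 library left out. With the smooth muscle level as a covariate it was 568, of which 354 were positive and 214 negative.

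With the replicate number as a replicate block the counts were 0 and 639. Over the 18 pairs of libraries that share a number, correlations of deviations from the group means ran from -0.462 to 0.204. With 3 libraries per group these cannot show whether a number marks a shared cage or day, and the labels do not say. As 0 genes were called without the block, it had no call to remove.

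Of 4229 values of 178 named genes under the alternatives, 64 changed sign, 59 of them in genes at an unadjusted p of 0.05 or more. The other 5 came with the Hox covariate, which gave -0.14 for Cldn8, -0.71 for Hoxd13, -0.61 for Ly6g, -0.47 for Slc20a1 and 0.024 for Btg2. Hoxd13 is part of the covariate, so its value there is not independent. For the other genes the cause was not tested. Of 1127 list medians 75 moved by more than the spread between replicates, 17 of them with the Hox covariate. The median of the T and NK cell list was -1.83 with a pseudocount of 0.1, -0.65 with 5, -1.92 at FPKM 5 or more and -1.98 with voom.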

Other observations

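T cell receptor gamma segments, left out of the well-expressed genes above, had small p on both sides. The joining segment Trgj1 was at FPKM 2.00, 2.12 and 4.00 in CD, 0.98, 1.23 and 0 in CD+DSS, listed at 0 in all 3 HFD libraries, and at 2.19, 2.81 and 2.62 in HFD+DSS. Its interaction was 2.95 ± 0.41 (limma adjusted p = 0.174). The segment Trgj2 had the opposite order, at 0, 1.06 and 0 in CD, 0.98, 2.47 and 3.35 in CD+DSS, 6.28, 1.89 and 2.17 in HFD, and 0 in all 3 HFD+DSS libraries, with an interaction of -3.31 ± 0.57. Both segments are 60 bases long, so these values rest on few fragments. The constant region Tcrg-C2, which is longer, was at -1.87 ± 0.43, on the same side as Trgj2 and the cytotoxic genes.

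The widest interval among the genes called in any alternative belonged to Mptx1, a mucosal pentraxin of the gut epithelium, named here after its values were seen. It was at FPKM 1544, 1407 and 5399 in CD, 231, 1.76 and 0.42 in CD+DSS, 80.5, 130 and 187 in HFD, and 181, 126 and 224 in HFD+DSS. Every CD library was above every other library, and the low values were those of CD+DSS replicates 2 and 3. The interaction was 8.33 ± 2.05 (95% interval 3.82 to 12.8) and 10.6 without CD+DSS replicate 1. The glutamate transporter gene Slc1a1 separated fully in both diets, at 3.67, 6.24 and 4.67 in CD, 2.29, 1.26 and 1.95 in CD+DSS, 1.75, 2.13 and 2.65 in HFD and 5.24, 3.52 and 5.12 in HFD+DSS, with an interaction of 1.86 ± 0.30 (limma adjusted p = 0.183).

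Besides the granzymes and Nkg7, 2 other lymphocyte genes, named after their values were seen, had groups that did not overlap under either diet. That order held in 20 of all 14179 genes (0.141%), among them genes of other kinds such as Ctnnb1 and Cog4. The granzyme gene Gzmk was at -1.47 ± 0.39 and the receptor gene Cd96 at -1.16 ± 0.38. Both were at low levels, under FPKM 4 in every library.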
